A study of Mus musculus with 4 samples.

Results

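The genes described here are 47 mouse genes that drive cells from G1 into DNA synthesis, copy the DNA, or carry out mitosis. They were taken as a named list and found among the array's non-control probes through each probe's RefSeq accession. Of the 47 genes, 13 act in G1/S control, 17 in DNA replication and 17 in mitosis. For 45 of them (12, 17 and 16) a probe was well above background on both Veh arrays or on both MaR1 arrays, among 24055 genes tested in all. That total also holds transcripts whose probes resolved to no named gene. Ccne2 was well above background on 0 of 4 arrays and Kif11 on 1 of 4, so neither was tested.

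RNA came from cultured primary Kupffer cells, which are the liver's own macrophages, isolated from male C57BL/6 mice aged 8 weeks by collagenase type IV perfusion and Percoll centrifugation. After plating in RPMI medium with 10% serum, cells were kept for 24 h in RPMI with 0.1% serum and either 200 nM maresin 1 (MaR1) or the ethanol vehicle (Veh). Maresin 1 is a lipid mediator made by macrophages and known for its part in the resolution of inflammation. Each group had 2 one-colour arrays, and both groups shared strain, sex, age, isolation and the move from high to low serum. Nothing in the labels tells whether a group's 2 arrays represent separate mice or cultures, so the p-values cover only array-to-array spread, which may be technical. All 4 arrays lay on 1 slide with the vehicle arrays at the first pair of positions, and position and treatment cannot be told apart.

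In G1, D-type cyclins bind Cdk4 and Cdk6, and cyclin E binds Cdk2. These kinases phosphorylate the retinoblastoma protein, which then releases E2F transcription factors, and E2F target genes include those of the replication machinery. Before S phase, Cdc6 and Cdt1 load the Mcm2 to Mcm7 helicase ring on DNA, and the GINS complex and Cdc45 later turn the ring into the active helicase. Mitotic genes peak later: cyclin B with Cdk1 starts mitosis, Plk1 and the Aurora kinases build the spindle, and Cdc20 activates the ligase that ends it. Kupffer cells can renew themselves in the adult liver, and macrophage division is known to be driven by the growth factor Csf1.

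Levels are log2 of the processed signal minus the 75th percentile of that array, so a negative level is a probe dimmer than that percentile. Levels of different genes are not compared, because each probe has its own brightness. Differences are MaR1 minus Veh on the log2 scale, with the standard error (SE) of limma's fit over 4 arrays, and adjusted p-values are from limma with Benjamini-Hochberg adjustment over all 24055 genes. A gene is said to have risen or fallen where that adjusted p is under 0.05.

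The 75th percentile of the signal ran from 847 to 988 on the 4 arrays, 54.5% to 55.6% of probes were well above background on each, and 0 spots were saturated. All 9 Kupffer cell and macrophage markers were well above background on the arrays. Their summed level was 10.07 to 10.13 in Veh and 10.01 to 10.03 in MaR1. A summed level is log2 of the markers' signals added on the linear scale, so the brightest probes of a list weigh most in it. Of these markers 1 rose and 1 fell (22.2% in either direction, against 24.0% of all genes tested). Markers of other cell types were also measured, and the summed levels of some lists moved with the treatment. As background for these counts, 11.2% of all genes tested rose and 12.8% fell. The summed level of 9 of 10 T and NK cell markers was 5.00 to 5.05 in Veh and 5.82 to 5.99 in MaR1. Of these 9 markers 2 rose and 4 fell, and 7 had a difference below 0. Gzma, a granzyme of cytotoxic cells, rose by 1.37 (SE 0.09), and Cd3d, a T cell receptor chain, differed by -0.22 (SE 0.06, adjusted p = 0.0569). For 5 of 6 B cell markers the range was 0.95 to 1.12 in Veh and 1.78 to 1.86 in MaR1. Of these 3 rose, and 1 had a difference below 0. Dendritic cell markers (6 of 7) had summed levels of 5.34 to 5.46 and 5.62 to 5.64. Of these 4 rose, and 2 had a difference below 0 and did not pass. Endothelial markers (6 of 7) stood at 5.90 to 5.97 and 6.20. Of these 3 rose, and the other 3 had a difference below 0 and did not pass. Erythroid markers (2 of 4) stood at 3.63 to 3.79 and 4.26 to 4.31, and both rose. Hepatocyte markers (7 of 8) stood at 4.29 to 4.40 and 4.08 to 4.17, stellate cell markers (6 of 7) at 5.34 to 5.35 and 5.24 to 5.28, and 1 of each fell. Monocyte markers (4 of 4) stood at 7.76 to 7.82 and 7.91 to 7.98 with 1 up and 1 down, and neutrophil markers (6 of 8) at 0.91 to 0.93 and 0.94 to 0.98. The summed level of 4 cholangiocyte markers was -0.78 to -0.65 in Veh and -1.03 to -0.83 in MaR1, and 1 rose. Among the defining markers, Blk, Xcr1, Kdr, Lrat, Cps1 and Ngp were not above background in either group. The part of these other cells in the cell cycle differences was not tested.

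Most listed genes of DNA replication were higher in the maresin 1 arrays. Most listed mitotic genes did not pass the test, and more of the rest were lower than higher. Of 17 replication genes, 14 rose, 0 fell and 3 did not pass, with a median difference of 0.34. At an unadjusted p under 0.05 in limma, 15 were higher and again 0 lower, against 4468 and 5321 of all 24055 genes. Of 16 mitotic genes tested, 1 rose, 4 fell and 11 did not pass, with a median of -0.06. Of 12 G1/S genes tested, 4 rose, 1 fell and 7 did not pass, with a median of 0.10. Over all genes tested, 11.2% rose and 12.8% fell, 24.0% in either direction, and the median difference was -0.02. The corresponding shares were 82.4% higher in the replication list, 6.25% higher and 25% lower in the mitotic list, and 33.3% higher and 8.33% lower in the G1/S list. The groups' values did not overlap for 40 of the 45 members, against 69.6% of all genes, so a lack of overlap is common in this comparison. In RNA from whole cultures, more cells in S phase and more RNA per cell cannot be told apart.

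**Figure D1:**
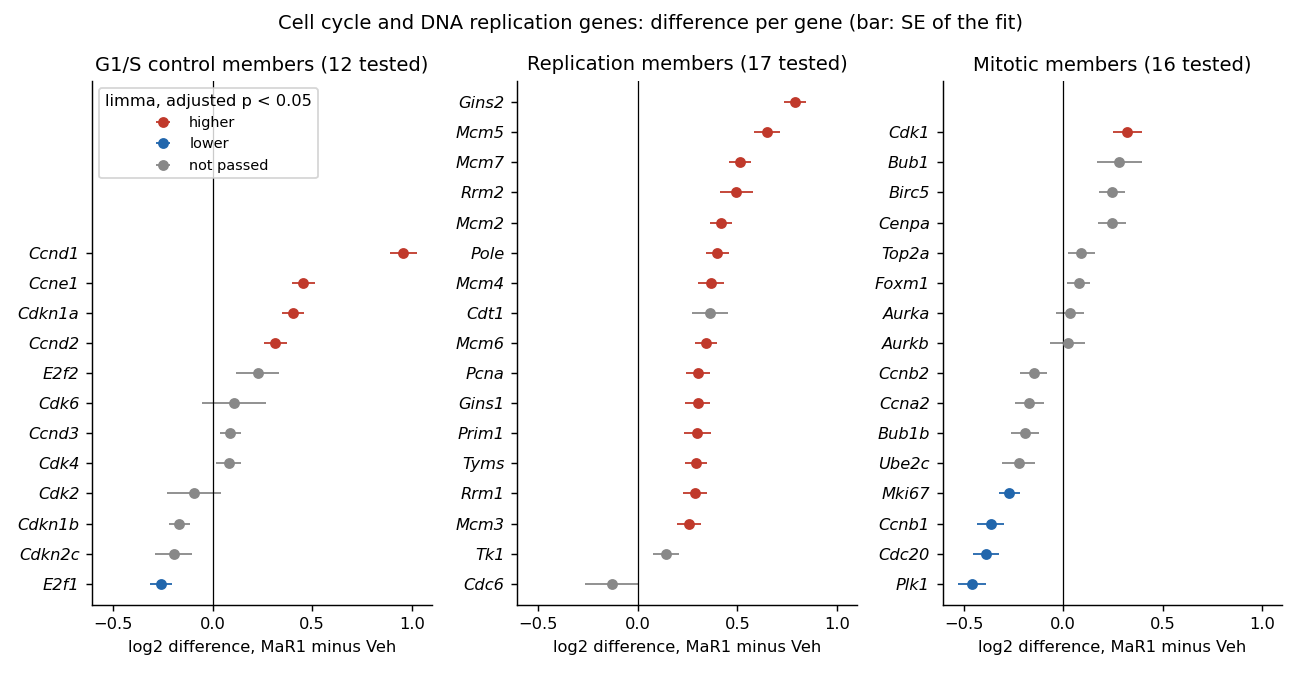
Log2 difference (MaR1 minus Veh, x axis) of each tested member in its list, with bars for the SE of the fit and colour for the limma call at adjusted p under 0.05. Of the replication genes 14 of 17 are coloured as higher, and of the mitotic genes 4 of 16 as lower and 1 as higher.

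These calls rest on few arrays. Of the 24 members called, Ccnd1 and Gins2 kept their call when any 1 array was left out (adjusted p from limma up to 0.0421 and 0.0411). Mcm5 missed the threshold without either MaR1 array (up to 0.0561), and the other 21 were lost without each array in turn, with adjusted p from 0.0515 to 0.189. Directions held more widely: 16 of 17 replication genes were higher in MaR1 in the fit of all arrays and in those without Veh 1, Veh 2 or MaR1 1, and 17 of 17 without MaR1 2. Without a filter on dim probes, 8 of the 24 calls remained: Ccnd1, Ccne1, Cdkn1a, Mcm2, Mcm5, Mcm7, Gins2 and Pole.

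Among the G1/S genes the D-type cyclin Ccnd1, the growth-factor sensor of the cycle, had the largest difference. Its level was 4.74 and 4.86 on the Veh arrays and 5.74 and 5.77 on the MaR1 arrays. Both MaR1 arrays stood above both Veh arrays by far more than the arrays of a group differed. Ccnd1 rose by 0.96 (SE 0.07), which is 1.94-fold (adjusted p = 0.00431). Ccnd2, a related cyclin, was at 3.95 and 3.90 in Veh and 4.23 and 4.25 in MaR1, and rose 1.24-fold (difference 0.31, SE 0.06, adjusted p = 0.0288). Ccnd3 differed by 0.09 (SE 0.05, adjusted p = 0.288) and did not pass. Ccne1, the cyclin E that starts S phase with Cdk2, was at 0.42 and 0.41 in Veh and 0.84 and 0.90 in MaR1. The groups did not overlap, and Ccne1 rose 1.37-fold (difference 0.45, SE 0.06, adjusted p = 0.0132).

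The kinases that these cyclins activate did not pass the test. Cdk4 differed by 0.08 (SE 0.06, adjusted p = 0.384), Cdk6 by 0.11 (SE 0.16, adjusted p = 0.653) and Cdk2 by -0.09 (SE 0.14, adjusted p = 0.640). For Cdk2 and Cdk6 the groups overlapped, with the 2 MaR1 arrays further apart than the 2 Veh arrays. E2f1, an activator of S phase genes, went the other way from the cyclins. Its level was 0.61 and 0.64 in Veh and 0.36 and 0.37 in MaR1, so that both MaR1 arrays lay below both Veh arrays. It fell by 0.26 on the log2 scale (SE 0.05, 1.20-fold lower, adjusted p = 0.0389). E2f2, a related activator, differed by 0.23 (SE 0.11, adjusted p = 0.193).

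The inhibitors of the kinases were mixed. Cdkn1a, which encodes p21 and is induced by p53 among others, was at 3.16 and 3.14 in Veh and at 3.56 and 3.53 in MaR1. Both MaR1 arrays were higher, and Cdkn1a rose 1.32-fold (difference 0.40, SE 0.06, adjusted p = 0.0157), in the same samples in which Ccnd1 and Ccne1 rose. Cdkn1b, which encodes p27, a brake of resting cells, differed by -0.17 (SE 0.05, adjusted p = 0.0952). Cdkn2c, an inhibitor of Cdk4 and Cdk6, differed by -0.20 (SE 0.09, adjusted p = 0.187). Of the 5 calls among these genes, that of Ccnd1 alone was kept whichever array was left out.

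All 6 subunits of the Mcm2 to Mcm7 helicase ring rose, by 1.20-fold to 1.57-fold. Mcm5 was at 0.38 and 0.27 in Veh and 1.00 and 0.95 in MaR1, a difference of 0.65 (SE 0.07, adjusted p = 0.00858). Mcm7 was at 1.54 and 1.58 in Veh and 2.06 and 2.08 in MaR1, a difference of 0.51 (SE 0.06, adjusted p = 0.00982). Mcm2 was at 0.33 and 0.28 in Veh and 0.72 and 0.73 in MaR1, a difference of 0.42 (SE 0.06, adjusted p = 0.0147). For each of these helicase subunits the gap between groups was larger than the gap within either. Mcm4 was at 2.06 and 2.16 in Veh and 2.45 and 2.50 in MaR1 (difference 0.37, SE 0.07, adjusted p = 0.0264). Mcm6 was at 3.50 and 3.46 in Veh and 3.81 and 3.84 in MaR1 (difference 0.34, SE 0.06, adjusted p = 0.0229). Mcm3 had the smallest difference of the ring, with 2.18 on both Veh arrays and 2.40 and 2.48 on the MaR1 arrays. The difference of Mcm3 was 0.26 (SE 0.06, adjusted p = 0.0470), and its call was lost under quantile normalization (adjusted p = 0.0589) and in the authors' value table (adjusted p = 0.0507).

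The loaders of the ring did not pass. Cdt1 was at 3.34 and 3.30 in Veh and 3.57 and 3.79 in MaR1, higher on both MaR1 arrays, which differed from each other more than the Veh arrays did. Its difference of 0.36 (SE 0.09) had an adjusted p of 0.0569. Cdc6 differed by -0.13 (SE 0.13, adjusted p = 0.498) and its groups overlapped. It was the only replication gene with a difference below 0.

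GINS subunits, which join the ring to form the active helicase, were higher in MaR1. Gins2 was at 0.30 and 0.27 in Veh and 1.06 and 1.08 in MaR1. The arrays of a group were almost equal, and Gins2 rose 1.73-fold (difference 0.79, SE 0.06, adjusted p = 0.00425). It had the largest difference of all replication genes and kept its call whichever array was left out. Gins1 was at 0.14 and 0.06 in Veh and 0.38 and 0.42 in MaR1, and rose 1.23-fold (difference 0.30, SE 0.06, adjusted p = 0.0362).

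Genes of the fork itself rose as well. Pcna, the sliding clamp that holds polymerases on DNA, was at 4.58 and 4.63 in Veh and 4.93 and 4.88 in MaR1. It rose 1.23-fold (difference 0.30, SE 0.06, adjusted p = 0.0344), and the call was lost under quantile normalization (difference 0.20, adjusted p = 0.0985). Pole, the catalytic subunit of the leading-strand polymerase, was at -2.12 and -2.07 in Veh and -1.71 and -1.69 in MaR1 (difference 0.40, SE 0.06, adjusted p = 0.0169). Prim1, the primase that makes RNA primers, was at 0.04 and 0.11 in Veh and 0.32 and 0.42 in MaR1 (difference 0.30, SE 0.07, adjusted p = 0.0455). For Pcna, Pole and Prim1 every MaR1 array was above every Veh array.

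Enzymes that supply deoxynucleotides moved the same way, with 3 of 4 called. Rrm2, the regulated subunit of ribonucleotide reductase, was at -0.90 and -0.78 in Veh and -0.42 and -0.28 in MaR1. It rose 1.41-fold (difference 0.49, SE 0.08, adjusted p = 0.0237). Rrm1, the large subunit, was at -0.07 and -0.03 in Veh and 0.28 and 0.20 in MaR1 (difference 0.29, SE 0.06, adjusted p = 0.0383). Neither pair of groups overlapped. Tyms, which makes thymidylate, was at 0.19 and 0.22 in Veh and 0.49 and 0.51 in MaR1 (difference 0.29, SE 0.06, adjusted p = 0.0306). Tk1, which salvages thymidine, differed by 0.14 (SE 0.07, adjusted p = 0.188) and did not pass.

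**Figure D2:**
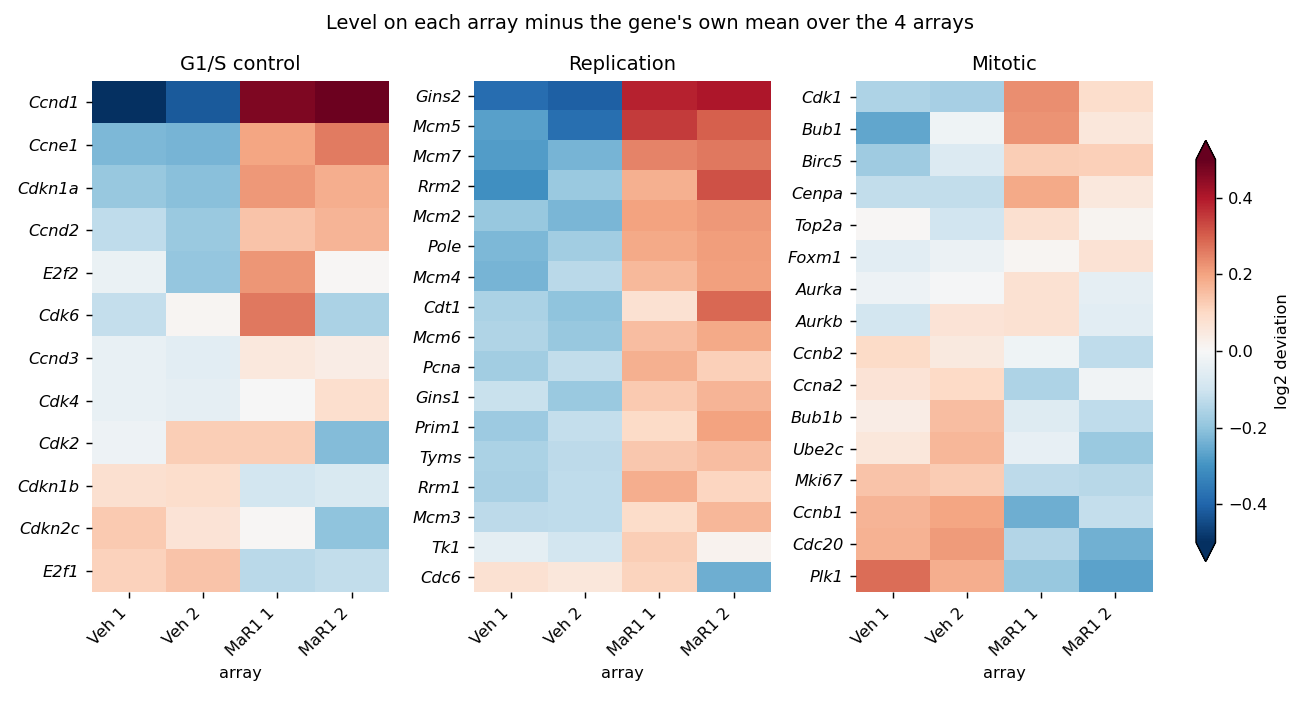
Level of each tested member on each array minus the gene's own mean over the 4 arrays (log2, colour scale ending at 0.5 in either direction), in columns Veh 1, Veh 2, MaR1 1 and MaR1 2. In the replication list 16 of 17 genes are lower on both Veh arrays than on both MaR1 arrays. The mitotic list of 16 genes holds 6 of that pattern and 8 of the opposite one. Of all 24055 genes tested, 7876 show the first pattern and 8864 the opposite one, so either pattern alone is common.

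Among mitotic genes, 4 fell. Plk1, a kinase of mitotic entry and spindle assembly, was at -0.71 and -0.81 in Veh and -1.18 and -1.26 in MaR1. Both MaR1 arrays were lower, and Plk1 fell by 0.46 on the log2 scale (SE 0.07, 1.37-fold lower, adjusted p = 0.0187). Cdc20, the activator of the anaphase-promoting complex, was at -1.27 and -1.23 in Veh and -1.59 and -1.68 in MaR1. It fell by 0.39 on the log2 scale (SE 0.06, 1.31-fold lower, adjusted p = 0.0226). Ccnb1, the cyclin that triggers mitosis with Cdk1, was at -2.07 and -2.05 in Veh and -2.48 and -2.36 in MaR1. It fell by 0.36 on the log2 scale (SE 0.07, 1.29-fold lower, adjusted p = 0.0305), and this call was lost with normexp background correction (difference -0.21, adjusted p = 0.0787). Mki67, which encodes the proliferation marker Ki-67, was at 0.19 and 0.18 in Veh and -0.08 and -0.09 in MaR1. With arrays of a group almost equal, it fell by 0.27 on the log2 scale (SE 0.05, 1.21-fold lower, adjusted p = 0.0346).

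Cdk1, the kinase partner of Ccnb1, was the only mitotic gene that rose. It was at -1.54 and -1.55 in Veh and -1.15 and -1.30 in MaR1, higher on both MaR1 arrays, and rose 1.25-fold (difference 0.32, SE 0.07, adjusted p = 0.0459). Top2a, the topoisomerase that untangles sister DNA, was at -1.28 and -1.38 in Veh and -1.21 and -1.27 in MaR1. Its MaR1 arrays were higher by less than the Veh arrays differed from each other, and the difference of 0.09 (SE 0.07, adjusted p = 0.372) did not pass.

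The other mitotic genes lay on either side of 0 and did not pass. Below 0 were Ube2c, a ubiquitin-conjugating enzyme of the anaphase-promoting complex (-0.22, SE 0.08, adjusted p = 0.121), and Bub1b, a spindle checkpoint kinase (-0.19, SE 0.07, adjusted p = 0.125). The cyclins Ccna2 (-0.17, SE 0.07, adjusted p = 0.161) and Ccnb2 (-0.15, SE 0.07, adjusted p = 0.182) were also below 0. Above 0 were the checkpoint kinase Bub1 (0.28, SE 0.11, adjusted p = 0.145), the chromosomal passenger protein gene Birc5 (0.25, SE 0.07, adjusted p = 0.0625) and the centromeric histone gene Cenpa (0.24, SE 0.07, adjusted p = 0.0759). Foxm1, a transcription factor of mitotic genes, differed by 0.08 (SE 0.06, adjusted p = 0.370). Aurka (0.03, SE 0.07, adjusted p = 0.736) and Aurkb (0.02, SE 0.09, adjusted p = 0.863), the Aurora kinases, had overlapping groups. In all, 8 mitotic genes had a difference above 0 and 8 below, and the list's median turned to 0.05 without MaR1 2 and to 0.02 without the filter on dim probes. Kif11 enters the list in both settings, and over the 16 genes tested otherwise the medians were -0.02 and -0.06. The 4 falls and the rise of Cdk1 were each lost without any 1 array.

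The contrast between the lists can be given per array as the mean of the members' deviations from their own mean over the 4 arrays. For replication genes this was -0.18 on both Veh arrays and 0.18 on both MaR1 arrays. For G1/S genes it was -0.08 on both Veh arrays and 0.12 and 0.04 on the MaR1 arrays. For mitotic genes it was 0.01 and 0.05 in Veh and 0.00 and -0.06 in MaR1, so the groups lay close together. The replication mean minus the mitotic mean was -0.19 and -0.22 in Veh and 0.17 and 0.24 in MaR1. The listed replication genes thus stood higher relative to the listed mitotic genes on both MaR1 arrays. In the wider lists described below, which hold other genes of these processes, the median differences lay close together. They were 0.21 for replication (15 of 44 rose, 0 fell) and 0.18 for mitosis (11 of 46 rose, 2 fell). The contrast in medians is thus limited to the members chosen here and was not seen between the wider lists. No p-value is given, since the members were chosen as lists and each group has 2 arrays.

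**Figure D3:**
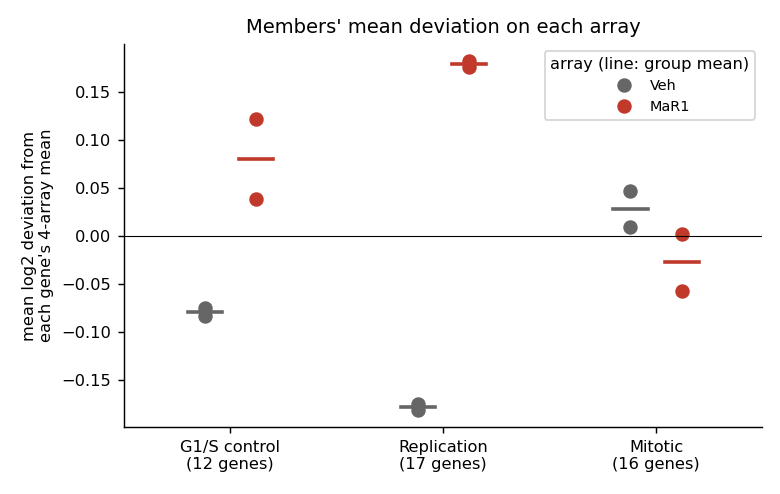
Mean log2 deviation of a list's members from their own 4-array means (y axis), 1 point per array and a line for the group mean, for the G1/S, replication and mitotic lists. The replication points lie at -0.18 in Veh and 0.18 in MaR1, and the mitotic points lie between -0.06 and 0.05.

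Several members were measured by more than 1 probe, which checks a difference within the same arrays but adds no replicate. For 19 members 2 or 3 probes were kept, 41 in all, and in 16 of the 19 all probes had the same sign. The second probe of Gins2 differed by 0.80 (SE 0.06) beside 0.79. The second probe of Gins1 differed by 0.53 (SE 0.06, adjusted p = 0.00956), more than the brightest at 0.30. The second probes of Mcm6 (0.49, SE 0.11), Tyms (0.31, SE 0.06) and Cdc20 (-0.53, SE 0.11) also passed in the fit over probes. Among called members, other second probes kept the sign without passing. They were those of Mcm7 (0.58, SE 0.19, adjusted p = 0.0914), Ccnb1 (-0.31, SE 0.13, adjusted p = 0.169) and Cdkn1a (0.28, SE 0.10, adjusted p = 0.108), and both further probes of Mcm3 (0.24 and 0.20). Of the further probes of Ccnd2, 1 passed (0.31) and 1 did not (0.25). The signs were split for Cdc6 (-0.13 and 0.25), Aurkb (0.02 and -0.03) and Birc5 (0.25 and -0.02), and none of these probes passed.

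**Figure D4:**
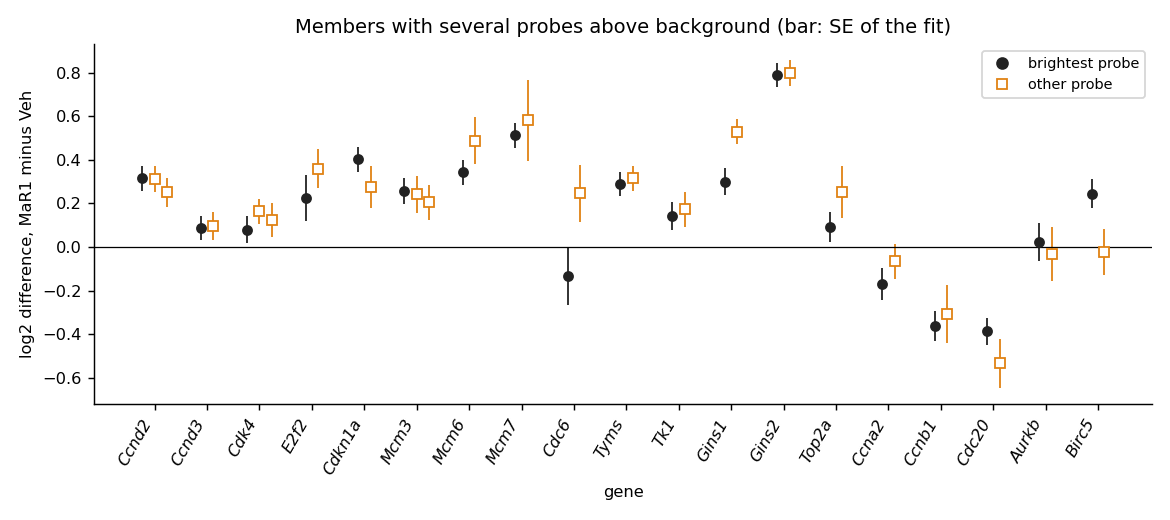
Log2 difference (MaR1 minus Veh, y axis) of every kept probe of the 19 members with more than 1 kept probe, with bars for the SE; filled circles are the brightest probe, used for the gene, and open squares the others. The probes lie on the same side of 0 in 16 of the 19 members, the exceptions being Cdc6, Aurkb and Birc5.

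Promoter sequences are shown because the replication and mitotic lists moved differently and their promoters are known to carry different elements. E2F factors bind variants of a short GC-rich site in promoters of S phase genes. Many mitotic promoters instead hold a cell cycle homology region (CHR), bound by the DREAM and B-Myb complexes, and CCAAT boxes bound by NF-Y. The promoters printed here are from RefSeq's table for GRCm38.p6 and end at the base before the start site, 250 bases each, 5′ to 3′ in the direction of transcription, and the search for letters took in the start base too. Mcm5 and Mcm7 rose and Plk1 and Cdc20 fell. In each list these were the called members with the smallest p in limma among those with a promoter in that table. Gins2, which had a smaller p than Mcm5, has none there. Capitals mark matches on either strand to the E2F-type letters TTTCCCGC, TTTGGCGC, TTTCGCGC and TTTGCCGC, to the CHR letters TTTGAA or to CCAAT, and a match to the other strand reads as the reverse complement.
Mcm5: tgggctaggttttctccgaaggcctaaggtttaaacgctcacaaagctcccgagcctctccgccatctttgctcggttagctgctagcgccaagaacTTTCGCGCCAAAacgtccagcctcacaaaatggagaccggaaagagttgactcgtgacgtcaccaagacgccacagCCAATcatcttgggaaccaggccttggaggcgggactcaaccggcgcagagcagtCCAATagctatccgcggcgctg
Mcm7: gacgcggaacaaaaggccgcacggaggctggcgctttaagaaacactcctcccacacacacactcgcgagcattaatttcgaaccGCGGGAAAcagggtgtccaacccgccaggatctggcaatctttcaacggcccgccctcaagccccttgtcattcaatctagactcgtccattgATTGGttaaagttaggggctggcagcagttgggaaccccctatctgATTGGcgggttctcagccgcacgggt
Plk1: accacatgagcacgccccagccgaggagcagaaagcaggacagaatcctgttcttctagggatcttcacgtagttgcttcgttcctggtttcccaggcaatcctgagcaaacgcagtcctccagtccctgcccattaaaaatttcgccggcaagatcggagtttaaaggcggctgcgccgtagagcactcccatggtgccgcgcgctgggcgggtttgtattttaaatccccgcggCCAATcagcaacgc
Cdc20: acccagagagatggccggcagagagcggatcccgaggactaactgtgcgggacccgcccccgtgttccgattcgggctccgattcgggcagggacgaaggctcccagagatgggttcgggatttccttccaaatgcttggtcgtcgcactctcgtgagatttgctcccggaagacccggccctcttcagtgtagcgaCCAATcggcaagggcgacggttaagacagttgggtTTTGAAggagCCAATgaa
In Mcm5 (chr8:75109259-75109508, + strand) a pair of overlapping E2F-type matches began 153 and 149 bases before the start, and CCAAT began 77 and 22 bases before it. In Mcm7 (chr5:138171884-138172133, - strand, 1 of 2 starts in the table) an E2F-type match lay at 165 bases and CCAAT at 72 and 26. The other Mcm7 start held no E2F-type letters. In Plk1 (chr7:122159185-122159434, + strand) CCAAT at 14 bases was the only match. In Cdc20 (chr4:118437344-118437593, - strand) the CHR letters lay at 18 bases, between CCAAT matches at 53 and 8.

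The table held 32851 promoters of 27025 gene symbols, among them those of 37 members. A gene was counted where at least 1 of its starts held the letters. E2F-type letters were found in 4 of 13 replication genes (30.8%): Mcm5, Mcm6, Mcm7 and Cdc6. They were found in 1 of 14 mitotic genes (Cdk1, 7.14%), in 1 of 10 G1/S genes (Cdk2) and in 2.17% of all genes in the table. The CHR letters were found in 7 of 14 mitotic genes (50%), namely Mki67, Top2a, Ccnb2, Cdk1, Cdc20, Kif11 and Ube2c. They were found in 1 of 13 replication genes (Mcm2), in 1 of 10 G1/S genes (E2f2) and in 18.3% of all genes. CCAAT was found in 13 of 14 mitotic genes (92.9%), 9 of 13 replication genes (69.2%), 4 of 10 G1/S genes and 37.5% of all genes. Among the mitotic calls, Mki67 and Cdc20, which fell, held the CHR letters, while Ccnb1 and Plk1, which also fell, did not. Cdk1, which rose, held E2F-type, CHR and CCAAT letters. A match to letters is a description and not evidence of binding.

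Genes of the same processes outside the 47 were read from the same fit, in lists drawn up by function. In the wider replication list, 15 of 44 genes tested rose and 0 fell, with a median of 0.21. That is 34.1% higher, against 11.2% higher and 12.8% lower over all genes. With an unadjusted p under 0.05 in limma, 26 were higher and 0 lower, against 4468 and 5321 of all 24055 genes. Cdc45, which completes the active helicase with GINS, rose by 0.79 (SE 0.06, adjusted p = 0.00571), close to the value for Gins2. Wdhd1, a polymerase anchor at the fork, rose by 0.97 (SE 0.09) and Uhrf1, which directs maintenance DNA methylation, by 0.73 (SE 0.07). Timeless, a fork protection factor, rose by 0.62 (SE 0.07), Mcm10, a helicase activator, by 0.59 (SE 0.07), and Rfc5, a subunit of the loader of Pcna, by 0.54 (SE 0.06). The call of Cdc45 was kept whichever array was left out, and each of the other calls was lost in at least 1 of those fits.

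Retinoblastoma and E2F family genes and further inhibitors numbered 26, of which 8 rose and 1 fell (median 0.09). The shares were 30.8% higher and 3.85% lower, against 11.2% and 12.8% of all genes. Rbl1, a retinoblastoma relative, rose by 0.56 (SE 0.07, adjusted p = 0.0111) and Mybl2, the B-Myb factor, by 0.45 (SE 0.07, adjusted p = 0.0168). E2f3, an activator, rose by 0.32 (SE 0.06), and E2f8, a repressor that is itself an E2F target, by 0.38 (SE 0.08), beside the fall of E2f1. E2f7, of the same family, differed by -1.18 (SE 0.29, adjusted p = 0.0524) and did not pass. Its MaR1 arrays lay apart, at -4.63 and -3.81. Inhibitors moved both ways, with Cdkn2d (0.51, SE 0.08) and Cdkn1c (0.33, SE 0.07) higher and Cdkn2b lower (-0.32, SE 0.06, adjusted p = 0.0295). Of these 9 calls, limma kept 0 whichever array was left out.

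The wider list of mitotic genes did not lean the same way as the 16 mitotic members. Of 46 tested, 11 rose and 2 fell while 33 missed the threshold, with a median of 0.18. The shares were 23.9% higher and 4.35% lower, 28.3% in either direction. Over all genes they were 11.2%, 12.8% and 24.0%. Pbk, a mitotic kinase, rose by 0.72 (SE 0.07, adjusted p = 0.00711), Tpx2, a spindle assembly factor that activates Aurka, by 1.15 (SE 0.14, adjusted p = 0.0117), and Wee1, the kinase that holds Cdk1 inactive, by 0.50 (SE 0.06, adjusted p = 0.0130). Zwilch, of the kinetochore (0.51, SE 0.07), Melk (0.38, SE 0.06) and Stmn1, which destabilises microtubules (0.32, SE 0.06), also rose. Kif20a, a kinesin of cytokinesis (-0.26, SE 0.06, adjusted p = 0.0429), and Aspm, a spindle pole protein gene (-0.30, SE 0.07, adjusted p = 0.0469), fell. The falls of Plk1, Cdc20, Ccnb1 and Mki67 are thus calls on those genes and not on mitotic genes as a class. The median of 0.18 was also close to the 0.21 of the wider replication list, unlike the medians of the member lists. Of the 13 calls in the wider list, limma kept 0 whichever array was left out.

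Of 19 genes of the p53 response, 6 rose, 2 fell and 11 did not pass (median 0.05). The shares were 31.6% higher and 10.5% lower, against 11.2% and 12.8% of all genes. Beside the rise of Cdkn1a, Eda2r, a receptor gene of the TNF receptor family, rose by 1.20 (SE 0.07) and Gadd45b, a stress sensor, by 0.78 (SE 0.06), and both were kept whichever array was left out. Plk2 (0.55, SE 0.07), Plk3 (0.52, SE 0.05), Phlda3 (0.47, SE 0.05) and Gadd45g (0.40, SE 0.06) rose. Sesn1 (-0.57, SE 0.06) and Sesn2 (-0.37, SE 0.07), the sestrins, fell. Those that did not pass included Mdm2 (0.02), Bax (0.01), Ccng1 (0.03), Trp53inp1 (0.04), Btg2 (0.05) and Bbc3 (-0.05). The rest of them were Pmaip1 (0.23), Zmat3 (0.10), Aen (0.08), Trp53 (-0.11) and Gadd45a (-0.12). Whether p53 had a part in these differences was not tested. The calls other than those of Eda2r and Gadd45b were lost when at least 1 of the arrays was left out.

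Of 16 genes of macrophage growth control, 9 rose and 2 fell (median 0.28). The shares were 56.2% higher and 12.5% lower, against 11.2% and 12.8% of all genes. The ligands of the Csf1 receptor, Il34 and Csf1, rose by 2.34 (SE 0.08) and 0.93 (SE 0.08), and Csf2rb, the shared chain of the GM-CSF receptor, by 0.67 (SE 0.06). The transcription factor genes Klf4 (1.20, SE 0.10), Mycn (1.17, SE 0.12) and Myc (0.76, SE 0.09) rose. On the Veh arrays Il34 was dim, at -5.39 and -5.22, and so was Mycn, at -4.75 and -5.07. The lowest level counted as well above background on any array was -5.75. Maf, which restrains self-renewal of macrophages, fell by 0.43 on the log2 scale (SE 0.08, adjusted p = 0.0341), and Klf2, a quiescence factor, fell by 0.24 on the log2 scale (SE 0.06, adjusted p = 0.0499). Il34, Klf4, Csf1 and Csf2rb stayed called in every fit that left out 1 array, and the calls of Mycn, Myc, Maf and Klf2 did not survive every such omission.

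**Figure D5:**
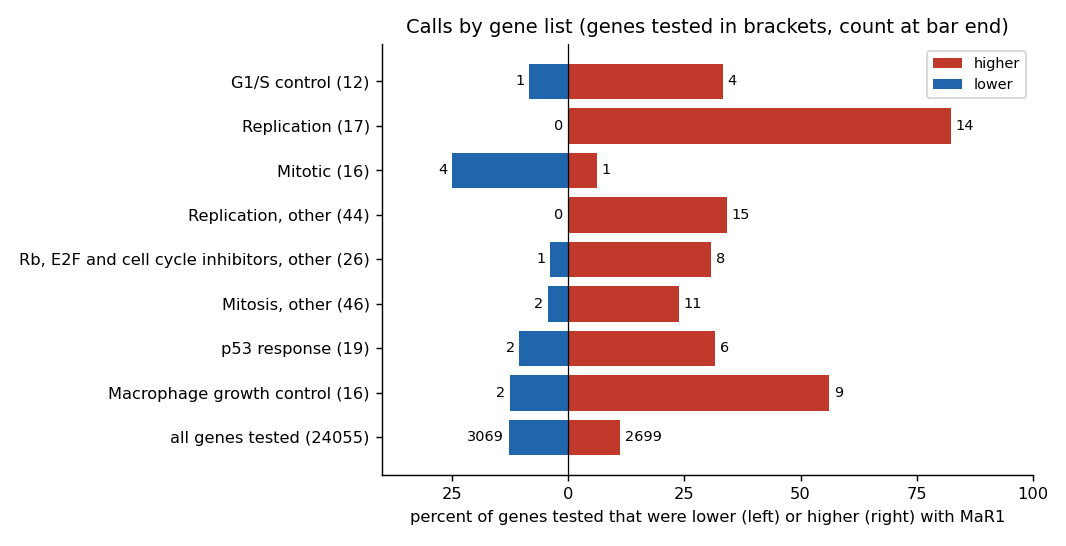
Percent of the genes tested in each list that fell (left) or rose (right) with MaR1 by limma at adjusted p under 0.05, with the count at the end of each bar and all 24055 genes at the bottom. The replication list reaches 82.4% higher, against 11.2% of all genes.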

How the data were processed

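The deposited scanner output of each array holds linear intensity values, which the authors extracted with Agilent Feature Extraction 11.0.1.1, per the submitters' processing notes. Background and spatial trends are corrected within each array, per the file headers, and no normalization between arrays is recorded there. The authors' deposited value table holds log2 values. Its sorted columns differed by at most 0.00217 and each had a median of 9.07, as after quantile normalization, and it was used as an alternative.

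Here log2 was taken of the processed signal, less the 75th percentile of the same array (non-control spots), with control and outlier spots left out. Of 56605 probes, 32994 were named by RefSeq accession (names of GRCm38.p6), and 31128 that were well above background on both arrays of a group were kept. A gene's value is that of its brightest kept probe. Probes that resolved to no named gene were kept under their own identifier and count among the genes tested. Groups were compared in R 4.3.3 with limma 3.58.1 (lmFit, then eBayes; two-sided, threshold 0.05 after Benjamini-Hochberg adjustment over 24055 genes), with 2.27 prior degrees of freedom. Precision is limited by the number of arrays. Same-numbered arrays did not deviate together (r = -0.0292 over genes), so the numbers were not taken as pairs.

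The members and lists were chosen with earlier results of these data known. Every member was named, with its difference where it was tested. Per-array values were given for called members and Top2a, and for Cdt1, which was chosen after its values were seen. Of each other pathway list, the called genes with the smallest p were named, at most 6 in each direction. In the p53 response list the genes that did not pass were named too. E2f7, which did not pass, was named after its values were seen. Of a cell type list at most 2 were named, by highest level. 1 of the listed marker genes is not reported here. Alternatives changed the scaling, background correction (normexp, offset 50, on the median spot signal), filter, probe choice, naming, variance model and replicate block, or left out 1 array. Python 3.11.15 with matplotlib 3.10.9 drew the figures.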

Additional observations from a re-analysis of the deposited data

How the results depend on the processing

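Direction held for every tested member under quantile normalization, the authors' value table, both normexp settings, both other filters, the variance trend, the replicate block and naming by accession alone. The genes whose direction changed in any setting, Cdk2, Cdk6, Cdc6, Aurka, Aurkb and Birc5, passed in no fit except Birc5 (in both normexp settings and with the variance trend). With the mean of a gene's probes, Cdc6 turned to 0.057 and Aurkb to -0.005, and by their other probe Cdc6 stood at 0.246, Aurkb at -0.032 and Birc5 at -0.023. Leaving out 1 array, Cdk2 ran from -0.263 to 0.074, Cdk6 from -0.106 to 0.318, Cdc6 from -0.31 to 0.046, Aurka from -0.026 to 0.095 and Aurkb from -0.057 to 0.104.

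Counts of calls depended more on the setting than directions did. With no filter on dim probes 1087 genes were higher and 972 lower, and 5 replication genes were higher, 0 mitotic genes higher or lower (3 and 4 at unadjusted p under 0.05 in limma) and 0 G1/S genes lower (2 unadjusted). That setting adds dim probes to the adjustment, moves the median over all genes to -0.14 and that of the mitotic list to 0.023. With a variance trend 4525 genes were higher and 4670 lower, 3 mitotic genes higher and 2 G1/S genes lower. With the replicate block 1766 genes were higher and 1926 lower, 6 replication genes higher, 0 mitotic genes higher (3 unadjusted) and 1 lower, and 0 G1/S genes lower (1 unadjusted). The block fit kept 10 of the 24 member calls, and a call lost under it is not a smaller difference. Both normexp settings gave 2 mitotic genes higher. Members that missed the threshold in the reported fit but passed in at least 1 alternative were Cdt1, E2f2, Cdkn1b, Birc5, Cenpa and Ube2c, each in its own direction. With 1 array left out, from 882 to 1207 genes were higher and from 668 to 1163 lower, 1 to 2 replication genes and 1 G1/S gene were higher, 0 to 1 mitotic genes higher (Kif11, which enters without MaR1 2), and 0 mitotic or G1/S genes lower (4 to 5 and 0 to 2 unadjusted in limma). In those fits the lone array of a group is assumed to vary like the other group. The median of the replication list was 0.29 with quantile normalization, 0.31 with normexp and quantile normalization, 0.30 in the authors' value table and 0.37 with the mean of a gene's probes. With 1 array left out it ran from 0.33 to 0.36, that of the G1/S list from 0.09 to 0.20 and that of the mitotic list from -0.091 to 0.047. The mitotic median turned above 0 in the fits that Kif11 enters, and over the other 16 genes it was -0.06 without the filter and -0.02 without MaR1 2. The cause of the other changes was not tested.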
